A study of Homo sapiens with 12 samples.

Results

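The 10 genes described here are the transcription factors SNAI1, SNAI2, TWIST1, TWIST2, ZEB1 and ZEB2, the cadherins CDH1 and CDH2, and the mesenchymal genes VIM and FN1. They were taken by name from the 20136 protein-coding genes of the annotation, and all 10 were found in it. Peaks of trimethylated histone H3 lysine 4 (H3K4me3) and of a non-specific antibody (IgG) were read around each gene in BON1, a cell line from a human pancreatic neuroendocrine tumor. One line, labelled BON1/TGL/HA-Bcl-xL, overexpressed HA-Bcl-xL, an HA-tagged form of the anti-apoptotic BCL2 family protein Bcl-xL. The other, labelled BON1/TGL/pQ, was its control. Both lines shared the BON1/TGL background and were grown in medium with puromycin, and neither received a further treatment that the labels name. The labels do not say whether either line was 1 clone, nor whether replicates were separate cultures, so the spread between replicates may be technical.

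CUT&RUN cuts and releases the DNA around a bound antibody, here from 500000 cells per condition. Peak lists were read for 3 control and 2 HA-Bcl-xL H3K4me3 libraries and for 3 IgG libraries of each line. The H3K4me3 library of HA-Bcl-xL replicate 1 was not analysed here. The H3K4me3 lists held 17711, 12159 and 10247 peaks in control replicates 1 to 3, while those of the overexpressing replicates 2 and 3 held 16379 and 15497. The IgG lists held 1674 to 2113 peaks in the control line and 244 to 268 in the HA-Bcl-xL line. The lists give no read totals, so total depth is unknown. Each list does give a fold and a p for every peak, and together these fix a whole number of fragments at the peak's summit, with a median of 9 to 12 per H3K4me3 library. At such counts a missing peak means that no peak was called, not that the mark was absent. Of 10 commonly used reference genes, 8 were marked within 1 kb of their start in at least 1 library, as were 48.2% of all genes, and 4 in all 5, as were 21.3%. Those in all 5 were TBP, RPLP0, B2M and POLR2A. ACTB was marked in 1 library within 1 kb and in 3 within 2.5 kb.

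Epithelial-mesenchymal transition (EMT) is the program by which epithelial cells lose cell-cell junctions and gain motility. SNAI1, SNAI2, ZEB1 and ZEB2 are zinc-finger repressors that bind E-box motifs, among them those in the promoter of CDH1, which encodes the junction protein E-cadherin. TWIST1 and TWIST2 are basic helix-loop-helix factors, and CDH2 (N-cadherin), VIM (vimentin, an intermediate filament) and FN1 (fibronectin, a matrix protein) are commonly read as mesenchymal markers. MicroRNAs of the miR-200 family repress ZEB1 and ZEB2, and the ZEB proteins repress the miR-200 genes in turn. H3K4me3 is a mark of active and poised promoters.

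The promoter of MIR200CHG, not one of the 10 genes but the host transcript of the microRNA genes MIR200C and MIR141, is printed because its peaks lay over or next to its start in every H3K4me3 library. It is the 250 bases before the annotated 5′ end, read 5′ to 3′ from GRCh37 on the plus strand, at chr12:7072139-7072388. Capitals mark the E-box CACCTG.
MIR200CHG: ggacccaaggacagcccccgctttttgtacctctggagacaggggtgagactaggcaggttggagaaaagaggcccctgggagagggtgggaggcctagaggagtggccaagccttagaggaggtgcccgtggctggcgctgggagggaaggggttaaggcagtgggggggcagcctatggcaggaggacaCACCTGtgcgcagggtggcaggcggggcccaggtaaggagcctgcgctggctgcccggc

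The mature microRNAs of the family are shown because they fall into 2 groups by seed, the bases 2 to 8 that pair with targets, here in capitals. All 5 were found in RefSeq (GRCh38.p14).
hsa-miR-200c-3p: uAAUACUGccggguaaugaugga
hsa-miR-200b-3p: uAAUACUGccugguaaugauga
hsa-miR-429: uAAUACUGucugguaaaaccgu
hsa-miR-141-3p: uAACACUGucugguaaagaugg
hsa-miR-200a-3p: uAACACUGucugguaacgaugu

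CDH1 and SNAI2 were marked within 1 kb of their 5′ ends in every H3K4me3 library of both lines, and FN1 was marked in control replicate 2 alone. For SNAI2 in control replicate 2 this rested on 12 bases of a peak whose summit lay at 1038 bp, and the call was lost where the summit had to lie inside the window or the -log10 q had to be at least 5. The 7 other members had no peak there in any library. The count was 2, 3 and 2 of the 10 members in control replicates 1 to 3, where 40.4, 32.4 and 28.2% of all protein-coding genes had such a peak. It was 2 of 10 in each overexpressing library, where 38.1 and 36.5% of all genes had one, in replicates 2 and 3. The mean number of marked members was 2.33 ± 0.58 (SD, n = 3) in control cells and 2.00 ± 0 (n = 2) in HA-Bcl-xL cells, a difference smaller than the spread between the control libraries. Over all genes, every library showed a peak for 21.3%, at least 1 did for 48.2% and none did for 51.8%. No member was marked in the overexpressing line alone, meaning in both of its libraries and no other, as 0.844% of all genes were. Likewise, no member was marked in every control library and in neither of the others, as 0.248% of all genes were. With 2 libraries against 3, presence could not have passed a threshold of 0.05. The smallest two-sided p is 0.1 by Fisher's exact test and 0.2 by an exact permutation test that doubles the one-sided p.

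Wider windows added members, of which 0 separated the lines. Within 2.5 kb, ZEB1 gained a peak in control replicate 1 and VIM in HA-Bcl-xL replicate 2, so that 5 members were marked in at least 1 library, as were 53.5% of all genes, and 5 in none, as were 46.5%. Within 10 kb, ZEB2 was added in 4 libraries and ZEB1 in control replicate 3. The count was then 4, 3 and 4 members in control replicates 1 to 3, against 51.4, 42.9 and 38.1% of all genes, and 4 and 3 members in the overexpressing replicates 2 and 3, against 49.2 and 47.7%. Of all genes, 60.5% were marked within 10 kb in at least 1 library. SNAI1, TWIST1, TWIST2 and CDH2 had no peak within 10 kb in any of the 5, as had 39.5% of all genes. Within 1 kb of any annotated transcript start the same counts of members were found, against 48.4, 39.3 and 34.4% of all genes in the control replicates and 45.8 and 44% in the others. By that rule 56.6% of all genes were marked in at least 1 library and 43.4% in none.

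Under each of these windows CDH1 and SNAI2 were the members found in all 5 libraries, as were 25.6% of all genes within 2.5 kb, 29.7% within 10 kb and 26.5% within 1 kb of any transcript start. Members marked in every library of the overexpressing line and in no other numbered 0 in each case, against 0.824% of all genes within 2.5 kb, 0.904% within 10 kb and 0.899% at any transcript start. Members marked in every control library alone also numbered 0, against 0.248%, 0.243% and 0.238% of all genes.

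The IgG libraries showed no peak within 2.5 kb of the 5′ end of any member. At least 1 of the 6 IgG libraries had a peak there for 1.47% of all genes, and within 1 kb for 0.785%. Within 10 kb the share was 4.47%, and 1 member was among them: SNAI2, with a peak from -3123 to -3033 bp, counted from its 5′ end, in HA-Bcl-xL IgG replicate 1. That peak had 4 fragments at its summit and did not overlap the H3K4me3 peaks of the gene.

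**Figure D1:**
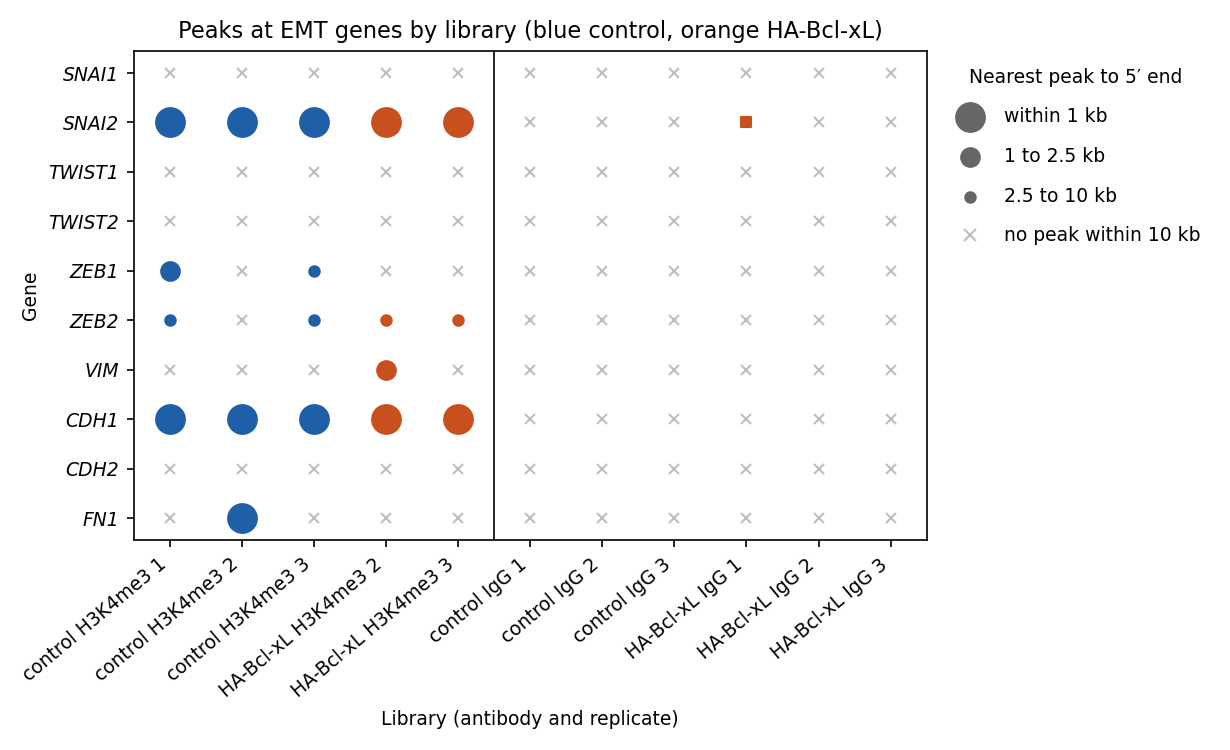
Presence of called peaks at the 10 genes (vertical axis) in 5 H3K4me3 and 6 IgG libraries (horizontal axis, blue for control and orange for HA-Bcl-xL). Symbol size shows the smallest window around the 5′ end that holds a peak, and crosses mark libraries with no peak within 10 kb; only CDH1 and SNAI2 have the largest symbol in all 5 H3K4me3 libraries.

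CDH1 was the only member with a peak over its 5′ end (chr16, position 68771195, plus strand, GRCh37), and it had one in each of the 5 libraries. Counting from the 5′ end as 0, the peak ran from -117 to 17 in control replicate 1, from -103 to 17 in replicate 2 and from -62 to 27 in replicate 3. In the HA-Bcl-xL line it ran from -92 to 25 in replicate 2 and from -175 to 27 in replicate 3. All 5 peaks shared 80 bp, and each reached from upstream sequence into the noncoding part of the first exon. The summits lay between -69 and -1.

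The CDH1 peak stood high in its own lists. Its summit held 17, 13 and 11 fragments in control replicates 1 to 3 and 13 in each HA-Bcl-xL library. Ranked by -log10 p, it lay at the percentile 87.8, 82.6 and 82.3 of its list in the control replicates and at 81.0 and 79.6 in the overexpressing replicates 2 and 3, a mean of 82.7 ± 3.11 (SD, n = 5). The highest value was in control replicate 1 and the lowest in HA-Bcl-xL replicate 3. With lists cut to equal length the mean was 75.9. Of the reference genes marked in all 5 libraries, the mean percentile was 72.3 for TBP, 74.6 for RPLP0, 95.9 for B2M and 32.2 for POLR2A. These ranks describe each list, and lists of different length show no change through them.

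E-boxes were counted in the 250 bases before the 5′ end of the members other than CDH1. Searching both strands for CACCTG, ZEB1 and SNAI1 had 1 match each and the 7 others had 0. Of all protein-coding promoters of that length, 18.4% held at least 1. The wider E-box CANNTG, which includes CACCTG, matched 2 times in ZEB1, 1 time in SNAI1, SNAI2 and ZEB2 and 0 times in the others, while 60.6% of all promoters held at least 1 and 26.1% at least 2. A match describes letters only, and binding was not measured.

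Within 10 kb of the 5′ end, HA-Bcl-xL replicate 2 had further peaks in CDH1. Its second peak, from 1024 to 1116 bp after the 5′ end in a coding exon, had 12 fragments at its summit and the percentile 73.1, and another from 7587 to 7678 bp, in an intron, had 5 fragments and the percentile 19.9. No other H3K4me3 library had a second CDH1 peak within that distance. Over the whole gene, which is 98.2 kb long, the peaks numbered 2, 3 and 1 in control replicates 1 to 3, against 3 and 1 in the overexpressing replicates 2 and 3, so further CDH1 peaks were found in both lines.

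The bases under CDH1 peaks within 2.5 kb of the 5′ end were 135, 121 and 90 in control replicates 1 to 3, against 211 and 203 in the overexpressing replicates 2 and 3. Both HA-Bcl-xL libraries were above every control library, as they were for 9.44% of the 5151 genes with a peak in all 5 libraries. In limma across those 5151 genes, on log2 bases centred on each library's median, CDH1 was 0.75 higher in HA-Bcl-xL cells (SE 0.41, 95% confidence interval -0.11 to 1.61), and the Benjamini-Hochberg adjusted p was 0.945. That difference did not pass the test. Of the 211 bases in HA-Bcl-xL replicate 2, 93 came from the second peak, and within 1 kb the values were 135, 121 and 90 in control cells and 118 and 203 in HA-Bcl-xL cells, where the groups overlapped and the limma estimate was 0.32. limma called 0 of the 5151 genes at an adjusted p under 0.05 (0% of them), with 269 at an unadjusted p under 0.05.

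SNAI2 (chr8, 5′ end at position 49834299, minus strand) was marked inside the gene and not over its 5′ end. In each of the 5 libraries the strongest peak lay in an intron, from 750 to 949 bp after the 5′ end in control replicate 1, 989 to 1089 in replicate 2 and 841 to 1047 in replicate 3. In the HA-Bcl-xL line it ran from 871 to 1051 in replicate 2 and from 815 to 1045 in replicate 3. The summit in control replicate 1 was 583 bp after the start of SNAI2-201, the nearest annotated transcript. The peaks of control replicates 1 and 2 did not touch, and the 3 others overlapped both of them. Control replicate 1 had 2 more peaks, from 138 to 218 bp in a noncoding part of an exon, with 9 fragments, and from 1622 to 1720 bp in a coding exon, with 8.

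The summit of the SNAI2 peak held 15, 9 and 9 fragments in control replicates 1 to 3, against 14 and 11 in the overexpressing replicates 2 and 3. Its percentile was 68.5, 23.3 and 40.3 in the control replicates and 67.0 and 41.5 in the HA-Bcl-xL replicates, a mean of 48.1 ± 19.3 (SD, n = 5). With lists cut to equal length the mean was 30.7. Control replicates 1 and 2 were the highest and the lowest of all, so that the control line spanned the range of both lines. A lncRNA on the opposite strand starts 237 bp inside SNAI2 and is read towards the SNAI2 5′ end. The strongest SNAI2 peaks, between 750 and 1089 bp, lie before the start of the lncRNA and outside it. The peak from 138 to 218 bp in control replicate 1 lies past that start. CUT&RUN peaks carry no strand, so marks of the 2 transcripts cannot be told apart.

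Bases under SNAI2 peaks within 2.5 kb were 380, 101 and 207 in control replicates 1 to 3, against 181 and 231 in the overexpressing replicates 2 and 3. Here the groups overlapped, whereas both overexpressing libraries were below every control library for 5.77% of the 5151 genes and for no member. The limma estimate was -0.08 (SE 0.48, 95% confidence interval -1.08 to 0.91, adjusted p = 0.996). The interval spans changes in both directions, and the estimate was 0.81 where only 1 kb was used.

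**Figure D2:**
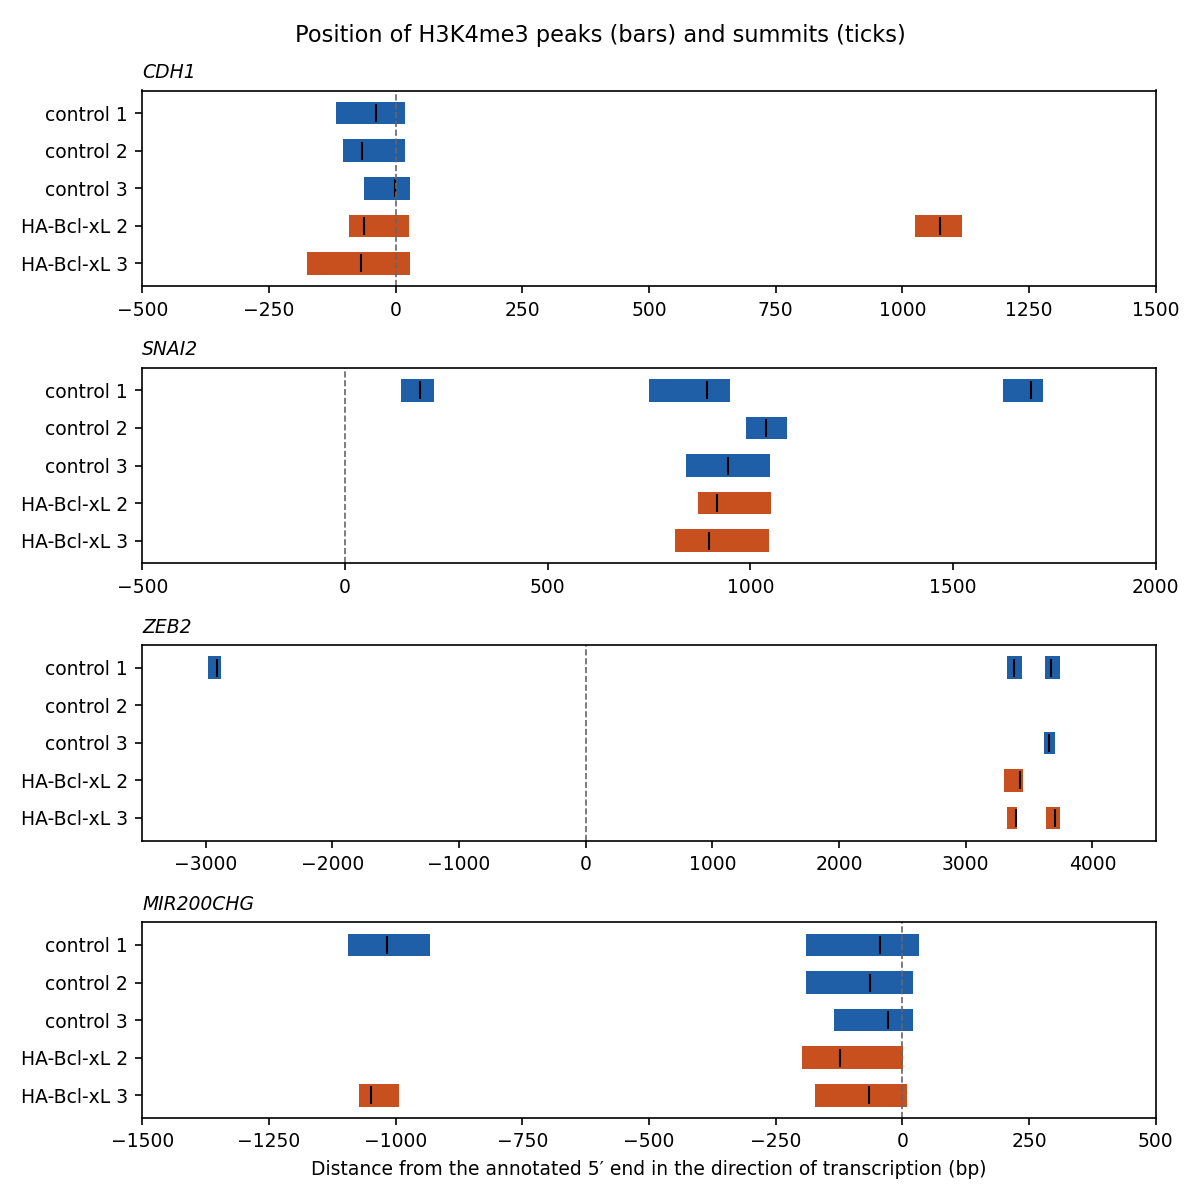
H3K4me3 peaks (bars) and summits (ticks) at CDH1, SNAI2, ZEB2 and MIR200CHG in each library, by distance from the annotated 5′ end in bp (dashed line, transcription to the right, blue for control and orange for HA-Bcl-xL). CDH1 and MIR200CHG peaks lie at the 5′ end in all 5 libraries, the strongest SNAI2 peak of each library lies between 750 and 1089 bp inside the gene, and ZEB2 peaks lie between 3304 and 3743 bp inside it in every library but control replicate 2, with 1 more before the gene in control replicate 1.

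ZEB2 (chr2, 5′ end at position 145278624, minus strand) had no peak within 2.5 kb of its most 5′ end. It has 46 annotated transcript starts, and the peaks inside the gene and within 10 kb of its 5′ end lay between 3304 and 3743 bp, over exons that also hold alternative starts. Control replicate 1 had a pair of peaks there, with 11 and 12 fragments and the percentiles 61.1 and 69.2, and another before the gene, from -2981 to -2883 bp, with 9 fragments. Control replicate 3 had 1 peak, with 12 fragments and the percentile 90.9, and control replicate 2 had none, its nearest peak lying 773 kb away. HA-Bcl-xL replicate 2 had 1 peak there, with 9 fragments and the percentile 52.0, and HA-Bcl-xL replicate 3 had 2, with 5 and 7 fragments and the percentiles 4.56 and 32.1. Both lines were thus marked in that stretch, and the library without a peak was a control library. The peaks of control replicate 3 and HA-Bcl-xL replicate 2 did not overlap. Control replicate 1 and both HA-Bcl-xL libraries each had 1 more peak deeper in ZEB2, beyond 10 kb. The lncRNA LINC01412 starts at -811 bp on the opposite strand, between ZEB2 and the peak before the gene. Whether that peak marks ZEB2 or the lncRNA cannot be told apart.

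ZEB1 (chr10, 5′ end at position 31607424, plus strand) had a peak within 10 kb in 2 of 3 control libraries and in 0 of 2 HA-Bcl-xL libraries. The peak of control replicate 1 lay 2354 to 2464 bp inside the gene in an intron, with 11 fragments and the percentile 22.7. The peak of control replicate 3 lay 2861 to 2943 bp inside the gene, in a noncoding part of an exon, with 9 fragments and the percentile 20.3, and did not overlap the first. Both ZEB1 peaks were thus among the weaker peaks of their lists.

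Each of the 2 marker genes with a peak had it in 1 library. VIM (chr10, 5′ end at position 17270240, plus strand) had 1 in HA-Bcl-xL replicate 2, from 2315 to 2390 bp inside the gene in a noncoding part of an exon, with 6 fragments and the percentile 21.2. FN1 (chr2, 5′ end at position 216300796, minus strand) had 1 in control replicate 2, from -707 to -618 bp, with 8 fragments and the percentile 42.1. The lncRNA FN1-DT starts at -180 bp on the opposite strand, between FN1 and the peak, and a mark of one transcript cannot be told apart from a mark of the other. A peak in exactly 1 of the 5 libraries was found within 1 kb, as for FN1, for 6.88% of all genes. Within 2.5 kb, as for both VIM and FN1, the share was 6.54%. In a limma fit that also took genes with a peak in only some libraries, with 50 bases added to each value, the log2 differences were -0.66 for FN1, 0.50 for VIM and -0.73 for ZEB1, and the adjusted p was 0.92 for each.

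The nearest H3K4me3 peak to the 5′ end of CDH2 lay a median of 926 kb away over the 5 libraries, with a range of 464 to 1629 kb, and the median was 366 kb for TWIST1, 221 kb for TWIST2 and 45.7 kb for SNAI1, whose range was 12.9 to 46.7 kb. Over all genes the median was 15.6 kb. For VIM the nearest peak lay 399, 416 and 415 kb away in control replicates 1 to 3 but 2.315 and 26.7 kb away in the overexpressing replicates 2 and 3. For TWIST1 it lay 366, 1098 and 443 kb away in the control replicates and 36.3 and 186 kb away in the HA-Bcl-xL replicates. The HA-Bcl-xL libraries were thus nearer than every control library for VIM and TWIST1, as they were for 10.8% of all genes, and no member was farther in both, as 4.73% of all genes were. The peak nearest to VIM in HA-Bcl-xL replicate 3 was before the gene, unlike that of replicate 2. The peak nearest to TWIST1 in HA-Bcl-xL replicate 2 lay inside the annotated gene, which is 96.6 kb long, and was 75 bases wide. That of replicate 3 lay before the gene. In HA-Bcl-xL replicates 2 and 3 these peaks had the percentiles 21.2 and 2.94 for VIM and 7.83 and 4.16 for TWIST1, low in their lists. In control replicates 1 to 3 the percentiles were 21.8, 85.7 and 20.0 for VIM and 6.17, 68.8 and 13.2 for TWIST1. Distances were not read with lists of equal length.

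**Figure D3:**
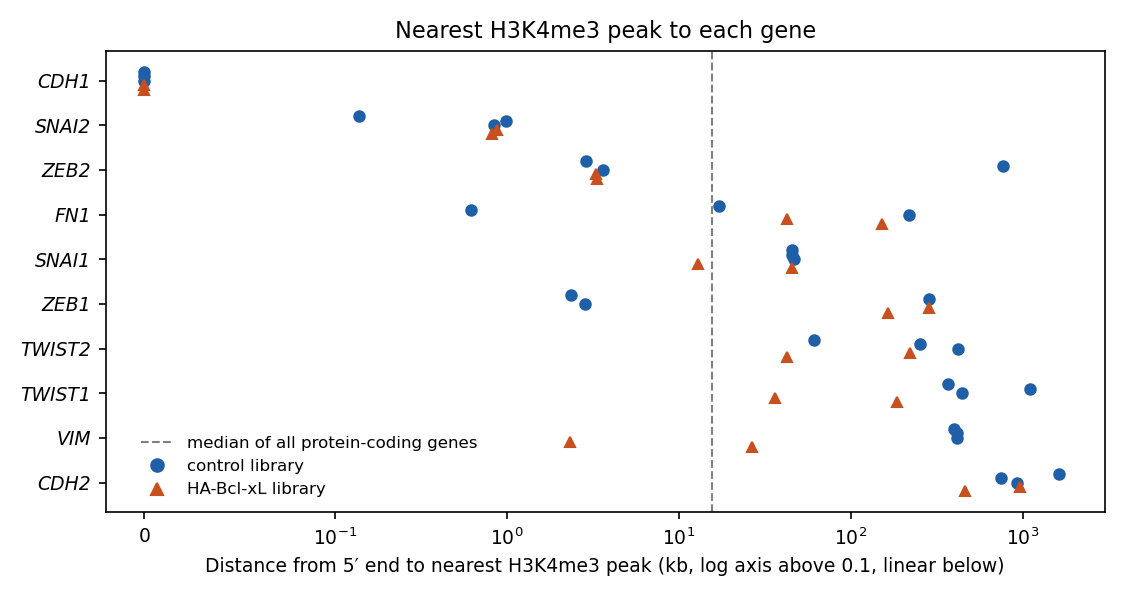
Distance in kb from the 5′ end of each member to the nearest H3K4me3 peak, 1 point per library (blue circles for control, orange triangles for HA-Bcl-xL), on an axis that is logarithmic above 0.1 kb. CDH1 is at 0 in all 5 libraries and CDH2 is at 464 kb or more in each, while the dashed line marks the median of all genes at 15.6 kb.

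Base composition differed among the members. The 2 kb around the 5′ end had 64.4% GC in SNAI1, 68.2% in TWIST1, 70.1% in TWIST2 and 65.0% in CDH2, the 4 members without a peak within 10 kb, against a median of 55.0% over all genes. CDH1 had 62.7%. SNAI2 had 45.4% and ZEB2, which had no peak within 2.5 kb, had 43.1%, while ZEB1, VIM and FN1 had 53.9, 53.4 and 55.8%. The share of all genes with a peak within 1 kb in all 5 libraries was read by decile of GC. It was 13.8% in the second decile, which holds SNAI2 and ZEB2, and 35.1% in the fourth, which holds no member. It was 29.1% in the fifth, which holds ZEB1 and VIM, and 29% in the sixth, which holds FN1. In the ninth, which holds SNAI1, CDH1 and CDH2, it was 16.7%, and in the tenth, which holds TWIST1 and TWIST2, 9.84%. The ratio of observed to expected CpG was above the median of all genes, 0.61, in every member but ZEB2 at 0.42, with a highest value of 0.91 in CDH2. The part of base composition in these absences was not tested.

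**Figure D4:**
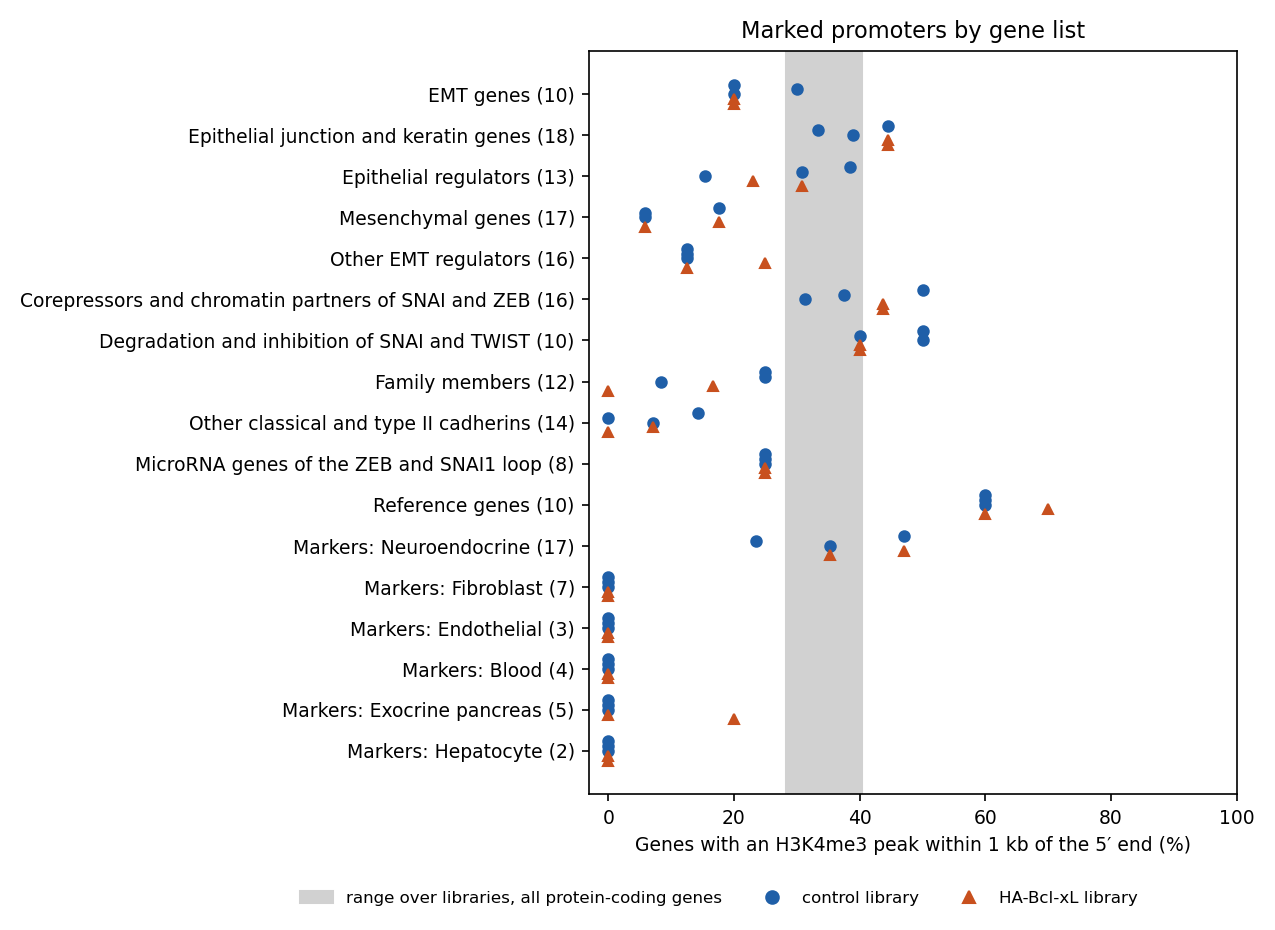
Share of genes marked by H3K4me3 within 1 kb of their annotated 5′ end, in percent, for the 10 EMT genes and for related lists (number of matched genes in brackets), 1 point per library (blue circles for control, orange triangles for HA-Bcl-xL). The EMT genes lie at 20 to 30%, and the grey band is the range of all protein-coding genes, 28.2 to 40.4%.

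Genes that work with the members were read from lists of the pathway. In the microRNA arm, the promoter of MIR200CHG had a peak over or next to its 5′ end in all 5 libraries, with 23, 26 and 15 fragments in control replicates 1 to 3. The overexpressing replicates 2 and 3 had 19 and 28. Its percentile ran from 78.7 to 96.2, and the CACCTG that starts 59 bases before the 5′ end was covered in 5 of 5 libraries. MIR200C and MIR141 start 473 and 871 bp after that end and carry the 2 seeds between them. They share these peaks, so they are not separate observations. MIR200B, which lies in the other cluster with MIR200A and MIR429, had a peak about 2 kb before its start in control replicates 1 and 3 and HA-Bcl-xL replicate 3. Of the 8 microRNA genes matched, MIR200C and MIR141 were marked within 1 kb in all 5 libraries, as were 21.3% of all genes. The other 6, among them MIR34A, MIR34B and MIR34C, were marked in none, as were 51.8% of all genes.

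Among the epithelial genes, 3 of 18 junction and keratin genes were marked within 1 kb in every library, the keratins KRT8 and KRT18 and the junction gene F11R, and 10 of 18 were marked in at least 1. KRT8 and KRT18 overlap at their 5′ ends and share these peaks, so they are not separate observations. PKP2, a desmosome gene, was marked in the overexpressing line alone, as 170 genes (0.844%) were, a number that became 218 to 613 when 1 library was left out. Of 13 epithelial regulators, GRHL2 and FOXA1 were marked in all 5 libraries. Of 17 mesenchymal genes 1 was marked in all 5, ACTA2, whose 5′ end has the start of FAS 682 bp inside it on the opposite strand, and 13 were marked in none. Starts of other genes also lay within 1 kb of the 5′ ends of FOXA1 (TTC6 at 430 bp), GRHL2, KDM1A (TEX46 at -343 bp), ID1 and FBXO11, and their marks cannot be told apart. These shares stand beside 21.3% of all genes marked in all 5 libraries and 51.8% in none.

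Of 12 relatives by family and 14 other cadherins, 0 and 0 were marked within 1 kb in every library, and 4 and 3 in at least 1, as 48.2% of all genes were. Other EMT regulators marked in all 5 libraries, as 21.3% of all genes were, were SOX9 and TCF3 of 16, and 12 were marked in none. The chromatin partners through which SNAI and ZEB proteins repress included 4 of 16 marked in all 5, the demethylase gene KDM1A, SIN3A, SMARCA4 and SETDB1, a share near that of all genes. Of 10 genes whose products degrade, stabilise or inhibit SNAI and TWIST proteins, 3 were marked in all 5: FBXO11, an F-box gene, and ID1 and ID3, which encode inhibitors of basic helix-loop-helix factors. Within 2.5 kb, where 25.6% of all genes were marked in all 5 libraries, these were 5 of 10, with GSK3B and FBXW7 added, and the epithelial regulators were 4 of 13, with ESRP1 and OVOL2 added. Likewise TCF12 made 3 of 16 other EMT regulators and SUZ12 made 5 of 16 chromatin partners. In the IgG libraries, 1 of the 16 other EMT regulators had a peak within 1 kb, as 0.785% of all genes had, and within 2.5 kb 1 of the 13 epithelial regulators had one as well. The other related lists had 0 within 2.5 kb.

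Marker genes of the labelled cell type were checked in the same way. Of 17 neuroendocrine genes, CHGB, NEUROD1, SCG2 and SCG3 were marked within 1 kb in every library, and 9 were marked in at least 1, CHGA in control replicate 1 alone. These shares are near the 21.3% and 48.2% of all genes. Another 8 were marked in none within 1 kb, although INSM1, one of them, was marked within 2.5 kb in all 5 libraries. TPH1 was marked in the overexpressing line alone, as 0.844% of all genes were. Of the fibroblast, endothelial, blood and hepatocyte markers, 0 of 7, 0 of 3, 0 of 4 and 0 of 2 had a peak in any library. Of 5 exocrine markers, PTF1A had one, in HA-Bcl-xL replicate 3.

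Among the 5151 genes fitted, those whose bases under peaks were most like CDH1, by the mean absolute log2 difference over 5 libraries, were NDST1 at 0.0597, CEMP1 at 0.0809 and UBTF at 0.112. For SNAI2 they were TCP1 and MRPL18, neighbours that share the same peaks, at 0.0667, and UQCRB at 0.116. The measure likens only the summed bases under peaks within 2.5 kb.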

How the data were processed

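The labels describe CUT&RUN on both BON1 lines with an antibody to H3K4me3 or a rabbit anti-mouse IgG, and a ThruPLEX kit for the libraries. The submitters' processing notes name bcl2fastq 2.20, Trimmomatic 0.36, Bowtie2 2.2.9, MACS2 2.1.1, deepTools 3.5.1 and hg19, with no roles or settings. The authors deposited 1 peak list per library, with peak positions, a score, a fold enrichment (a ratio), a -log10 p and a -log10 q for each peak. Fold, -log10 p and -log10 q are the authors' values, used only within their own list.

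Coordinates are 1-based on GRCh37, with GENCODE release 44 lifted to it. A gene's 5′ end is its most 5′ annotated base. A peak counted in a window with at least 1 bp. Fragments at the summit were solved from fold and -log10 p as a Poisson tail, to within 0.001, for 95.9 to 99.97% of peaks per list. Whether they are fragments or reads is not recorded. Bases under peaks were compared with limma 3.58.1 in R 4.3.3 (Benjamini-Hochberg threshold 0.05), checked on simulated data. Python 3.11.15 and scipy 1.17.1 were used. Groups came from the labels. The labels do not say that replicate numbers pair the libraries, and outside the replicate block no pairing was used. All 10 members are named. From related lists, genes are named that were marked in all 5 libraries, or in both libraries of the HA-Bcl-xL line alone. Further genes (ACTB, PTF1A, MIR200B, MIR34A, MIR34B, MIR34C, CHGA and those added within 2.5 kb) were named after their values were seen. For likeness, the 3 nearest genes per member are named. The members and lists were chosen with earlier results of these data known. Of the list symbols, 3 were not matched. The promoter sequence of CDH1 is not reported here.

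The alternatives were wider windows, any transcript start, a -log10 q of at least 5, lists cut to 10247 peaks, summits inside the window, removal of peaks overlapping IgG peaks, other centring and pseudocounts, a block for the replicate number, and each library left out in turn.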

Additional observations from a re-analysis of the deposited data

How the results depend on the processing

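The difference between the lines in the number of marked members, -0.33, stayed within the spread between replicates under each of the 7 other settings and ran from -0.5 to 0 when 1 library was left out. Members found in every library of 1 line only stayed at 0 under each of the settings tried. IgG peaks at members rose from 0 to 1 within 10 kb. At a -log10 q of at least 5, and with summits required inside the window, SNAI2 lost control replicate 2. Over all genes, the 170 promoters marked in the HA-Bcl-xL line only became 218 to 613 when 1 library was left out (613 without control replicate 1, 466 and 509 without HA-Bcl-xL replicates 2 and 3). The 50 marked in the control line only became 79 to 233, and 79 with lists of equal length.

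limma called 0 genes, 2 with a replicate block (GNB1 and ETV5, no member), and 0 to 3 when 1 library was left out. The 2 and 3 came without HA-Bcl-xL replicates 2 and 3, where the lone HA-Bcl-xL library is assumed to vary like the control libraries, and each fit without a control library called 0. The replicate numbers are not a pairing by the labels, and deviations of same-numbered libraries correlated at 0.00455 and 0.0297. With 2 HA-Bcl-xL libraries their deviations from the line mean mirror each other, so these correlations cannot decide whether the libraries were paired. The log2 difference of CDH1 kept its sign under every alternative, from 0.32 within 1 kb to 1.00 within 10 kb, and from 0.63 to 0.83 with 1 library left out. That of SNAI2 turned positive with no centring (0.035), within 1 kb (0.81), with lists of equal length (0.32) and with the replicate block (0.15), and ran from -0.54 to 0.14 with 1 library left out. It could not be fitted at a -log10 q of at least 5. Adjusted p was at least 0.835 for CDH1 and 0.969 for SNAI2 under each alternative. The mean percentile of CDH1 was 86.0 by fold and 75.9 with lists of equal length, and that of SNAI2, 48.1, was 49.6 and 30.7. The causes of these shifts were not tested. Depth limits what absence means, since the median H3K4me3 summit held 9 to 12 fragments.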
